A study of Mus musculus with 6 samples.

Results

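The genes described here encode molecular chaperones and the machinery of the unfolded protein response. The list holds 36 genes and was read from whole mouse lungs of both genotypes, *Igf1*-/- and *Igf1*+/+, taken at embryonic day 18.5, with 3 arrays per genotype. A probe set, the group of oligonucleotides that reports 1 transcript region on these Affymetrix 3′ expression arrays, was kept when the annotation names a listed gene and no other for it. This gave 86 of the 22626 mouse probe sets and 34 of the 12393 genes that are named alone, because *Hsp90ab1* and *Hsf1* have no probe set of their own in the annotation. Of the 34 genes, 17 act in the cytosol, 3 in mitochondria and 14 in the endoplasmic reticulum (ER) or its stress response. Several probe sets were present for 26 of them, and for each gene the one with the highest mean over the 6 arrays is called the brightest and the others dimmer.

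The *Igf1*-/- embryos lack a functional *Igf1* gene in every cell, and both genotypes came from matings of heterozygous parents on a C57BL/6J background. According to the study's methods, pups of this age were delivered by caesarean section and were helped to breathe for a short time under a warming lamp before the lungs were taken. How well each pup breathed is not among the values used here, so breathing and genotype cannot be told apart. The labels speak of pooled lungs and the study's methods of separate lungs. Whether an array stands for 1 embryo or for a pool was thus not settled. The p values set the difference between genotypes against the variance between arrays of a genotype, drawn toward that of all probe sets. The deposited values are log2 expression values, in which a difference of 1 is a doubling. They order arrays within a probe set and not one probe set against another, so brightness serves only to choose which probe sets and genes are shown, and the number of arrays limits their precision.

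Chaperones bind unfolded stretches of other proteins and help them to reach or regain their shape. In the cytosol, HSP70 proteins work in cycles with HSP40 partners and hand clients to HSP90 through adaptor proteins, the ring-shaped chaperonin CCT folds actin and tubulin, and small heat shock proteins hold aggregating proteins without using ATP. In the ER, the HSP70 protein BiP, the lectins calnexin and calreticulin and the protein disulfide isomerases fold secreted and membrane proteins, a load that is heavy in lung epithelium making surfactant proteins. When unfolded proteins build up there, the sensors IRE1 (encoded by *Ern1*), PERK and ATF6 start the unfolded protein response, which raises transcription of ER chaperones, whereas the factor HSF1 does so for cytosolic ones.

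Promoters were searched on both strands for the binding letters of these responses, and the windows below are shown because they hold these letters in members described afterwards. RefSeq promoter entries of GRCm38.p6, each with 250 bases before and 50 after a transcript start, held 27 of the 36 members, and *Hspa8*, *Hsp90aa1*, *Hsp90ab1*, *Cryab*, *Cct4*, *Hsf1*, *Hspa9*, *Hyou1* and *Atf6* were not among them. The ER stress element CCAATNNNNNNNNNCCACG was found in 39 of 32851 entries (0.119%). It occurred in 6 of the 12 ER members with an entry, namely *Calr*, *Canx*, *Dnajc3*, *Hsp90b1*, *Hspa5* and *Pdia6*, in 0 of 13 cytosolic and in 0 of 2 mitochondrial members. The windows are written 5′ to 3′ on the strand of the gene, with the CCAAT and CCACG parts in capitals (ATTGG and CGTGG where the element runs on the other strand).
Hspa5, chr2:34772005-34772063, plus strand: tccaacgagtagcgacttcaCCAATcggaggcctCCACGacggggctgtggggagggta
Hsp90b1, chr10:86705618-86705676, minus strand: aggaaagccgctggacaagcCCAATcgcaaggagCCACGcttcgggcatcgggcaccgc
Hsp90b1, chr10:86705513-86705571, minus strand: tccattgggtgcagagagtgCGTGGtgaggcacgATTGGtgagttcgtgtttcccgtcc
Dnajc3, chr14:118937807-118937865, plus strand: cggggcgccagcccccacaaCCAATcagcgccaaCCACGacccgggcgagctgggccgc
Calr, chr8:84847055-84847113, minus strand: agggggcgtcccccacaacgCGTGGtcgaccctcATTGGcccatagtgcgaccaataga
Canx, chr11:50325780-50325838, minus strand: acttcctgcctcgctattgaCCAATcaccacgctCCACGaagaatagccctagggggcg
Pdia6, chr12:17266471-17266529, plus strand: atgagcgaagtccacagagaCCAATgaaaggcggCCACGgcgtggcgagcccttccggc

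All of these elements lie before the start, from 212 bases upstream for the outer one of *Hsp90b1* to 65 bases upstream for that of *Hspa5*. The shorter part CCACG, which the full element contains, is common, with 10765 entries (32.8%) and 21 of the 27 members.

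A heat shock element, taken as GAANNTTC, which reads the same on both strands, was present in 2564 entries (7.8%). It was found in 5 of 13 cytosolic members (*Cct2*, *Dnaja1*, *Hspb1*, *Hspb8* and *Hsph1*), in both mitochondrial members with an entry and in 0 of 12 ER members. The matches of *Hspb8* and *Hsph1* lie after the start and are not shown. In the windows below the GAA and TTC letters are in capitals.
Hspb1, chr5:135887782-135887849, plus strand: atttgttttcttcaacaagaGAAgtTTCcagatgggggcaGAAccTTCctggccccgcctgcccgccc
Dnaja1, chr4:40722324-40722371, plus strand: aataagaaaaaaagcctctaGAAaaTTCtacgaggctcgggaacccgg
Cct2, chr10:117063390-117063437, minus strand: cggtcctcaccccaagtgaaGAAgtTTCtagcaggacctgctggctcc
Hspe1, chr1:55088044-55088091, plus strand: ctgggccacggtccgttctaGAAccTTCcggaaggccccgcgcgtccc

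*Hspb1* holds 2 matches close together. *Hspd1* and *Hspe1*, which are transcribed away from each other, share the last window, so that 1 match lies 139 bases before the start of *Hspd1* and 84 bases before that of *Hspe1*. A match describes letters in a sequence and is not evidence of binding in these lungs.

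Markers of lung were present, with surfactant protein C (*Sftpc*) between 14.37 and 14.47 in all 6 arrays. *Igf1* itself was measured at 8.87, 8.99 and 9.38 in *Igf1*-/- lungs against 9.28, 9.85 and 9.65 in *Igf1*+/+ lungs (brightest probe set), with overlap. The place of this probe set relative to the inactivated part was not known. The study lists *Igf1* among its down-regulated genes at a false discovery rate under 0.20, and only the brightest probe set is given here. Immediate-early genes were lower in the *Igf1*-/- lungs at 12 of 12, of which 11 fell, with a mean level of 8.24 to 8.34 against 9.50 to 10.2. Cardiac muscle markers had a higher mean at 12 of 12 and none rose, with a level of 7.72 to 8.85 against 7.62 to 7.77, and *Igf1*-/- replicate 3 was highest. Plasma and B cell markers had a higher mean at 7 of 7 with none passing the test, at a level of 5.64 to 5.75 against 5.50 to 5.59. Their means over the 6 arrays ran from 3.86 for *Jchain*, near the lower end of the scale, to 11.29 for *Sdc1*. The log2 difference of *Pax5* was 0.01. Of 6 erythroid markers 4 had a higher mean with none passing, and 2 (*Alas2* and *Slc4a1*) had a lower mean and fell. Of 11 lung epithelial markers 7 had a higher and 4 a lower mean, with 1 passing the test as lower. The part of these differences in the results on chaperones was not tested.

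Chaperone genes as a whole differed little between *Igf1*-/- and *Igf1*+/+ lungs. Of the 86 probe sets, 48 had a higher and 38 a lower mean in the *Igf1*-/- lungs, and the median log2 fold change, written below as the log2 difference *Igf1*-/- minus *Igf1*+/+, was 0.03, the same as over all mouse probe sets (0.03). At an adjusted p under 0.10, at which a gene is said here to have risen or fallen, 1 probe set was higher, a dim one of *Hspa8*, against 0.164% of all mouse probe sets, and 0 were lower, against 0.393%. An adjusted p under 0.20 was reached by the same *Hspa8* probe set in the upward direction (0.981% of all) and by 4 probe sets in the downward direction (1.62% of all), which belong to *Cryab* and *Hspb1*. An unadjusted p under 0.05 was seen for 14 probe sets, 8 higher (6.27% of all mouse probe sets) and 6 lower (6.28% of all). Without *Igf1*+/+ replicate 3, the counts at 0.10 were 3 higher and 2 lower and that at 0.20 was 7 higher. In that fit 710 of all mouse probe sets passed 0.10 in place of 126, and 1370 in place of 222 were higher at 0.20. The 4 lower at 0.20 became 0 without any 1 of the *Igf1*-/- replicates or without *Igf1*+/+ replicate 1, and 1 without *Igf1*+/+ replicate 2. All values of one genotype lay above all values of the other at 11 probe sets with the *Igf1*-/- lungs higher, against 10.8% of all mouse probe sets, and at 6 with the *Igf1*-/- lungs lower, against 7.26%. With 3 arrays against 3, the smallest p that an exact permutation test can give for 1 probe set is 0.1. In bulk lung, fewer cells of a type and less RNA per cell cannot be told apart.

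Read at 1 probe set per gene, none of the 34 genes rose or fell, while 1 (*Pdia6*) was higher and 2 (*Cryab* and *Hspb1*) were lower at that threshold when *Igf1*+/+ replicate 3 was left out. Their log2 fold changes ran from -0.63 for *Cryab* to 0.32 for *Pdia6*, and 31 of 34 lay within 0.25 of 0. Of the 17 cytosolic genes 8 had a higher and 9 a lower mean in the *Igf1*-/- lungs (median -0.02), whereas all 3 mitochondrial genes (median 0.06) and 9 of 14 ER genes (median 0.03) had a higher one. Of all 12393 genes read the same way 7508 had a higher mean, and their median was 0.03. An unadjusted p under 0.05 was found for 4 genes, *Tcp1* and *Pdia6* with a higher and *Cryab* and *Hspb1* with a lower mean, against 12.7% of all genes read at the brightest probe set.

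**Figure D1:**
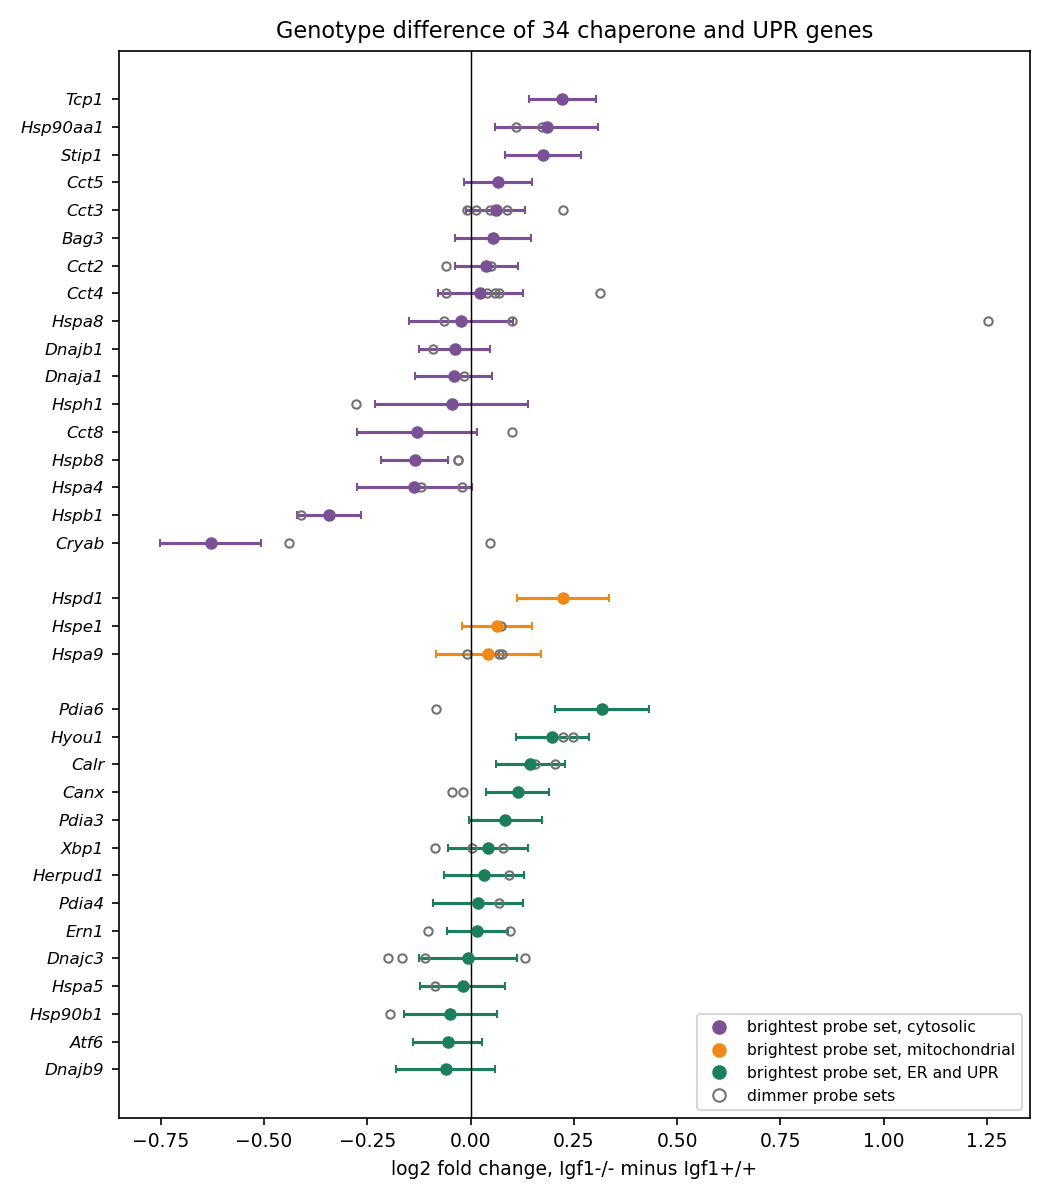
The log2 fold change (*Igf1*-/- minus *Igf1*+/+, x axis) is drawn for each of 34 genes (y axis) at the brightest probe set as a filled point with its standard error from limma, coloured by compartment, and at dimmer probe sets as open circles. Most points lie within 0.25 of 0, *Cryab* and *Hspb1* stand to the left, and the open circle at 1.25 is the dimmest probe set of *Hspa8*.

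*Hspa8* encodes HSC70, the constitutive HSP70 of the cytosol. The study lists it as up-regulated in these arrays at a false discovery rate under 0.10. For part of the genes at that level the study also ran quantitative RT-PCR on other lungs and reports the same directions. Its primer list includes *Hspa8*, but the RT-PCR value was not used here. On the arrays, 1 of its 4 probe sets stood apart from the others. The dimmest, 1431182_at, measured 7.11, 6.58 and 6.75 in *Igf1*-/- lungs against 5.34, 5.63 and 5.71 in *Igf1*+/+ lungs. Every *Igf1*-/- value was above every *Igf1*+/+ value, and this probe set rose by 1.25 on the log2 scale (adjusted p = 0.0134 by limma, SE 0.14, 3 arrays per genotype), a 2.38-fold difference. The brightest, 1455789_x_at, measured 12.83, 12.47 and 12.77 against 12.87, 12.78 and 12.49, with groups that overlapped and a log2 difference of -0.02 (adjusted p = 0.956, SE 0.13). The other two, 1420623_x_at and 1420622_a_at, had log2 differences of 0.10 (adjusted p = 0.706) and -0.07 (adjusted p = 0.881).

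Probe sets of the same gene can be compared within each array, which removes whatever the 2 share. The dimmest minus the brightest value of *Hspa8* was -5.73, -5.89 and -6.02 in *Igf1*-/- lungs against -7.53, -7.15 and -6.78 in *Igf1*+/+ lungs. This difference was thus larger in size in each *Igf1*+/+ array, and the genotype effects of both probe sets differed by 1.28 (adjusted p = 0.0563 by limma, SE 0.17, 3 arrays per genotype, adjusted over 7987 such pairs). Among all such pairs 8 passed (0.1%), and among the 52 pairs of chaperone genes *Hspa8* 1431182_at was the only one to pass. The call was lost without *Igf1*-/- replicate 1 (adjusted p = 0.364), replicate 2 (0.265) or replicate 3 (0.203), and the same held with *Igf1*+/+ replicate 2 left out (0.138), while the rise of 1431182_at alone kept an adjusted p between 0.0176 and 0.0611 with any 1 array left out. A comparison of means without moderated variances gave 0.367 for the rise and 0.540 for the difference between probe sets. The suffix x_at marks probe sets that may also detect similar transcripts, and the 2 brightest probe sets of *Hspa8* carry it. It is absent from 1431182_at and from 1420622_a_at, whose log2 difference was -0.07 (adjusted p = 0.881 by limma) with overlapping groups.

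**Figure D2:**
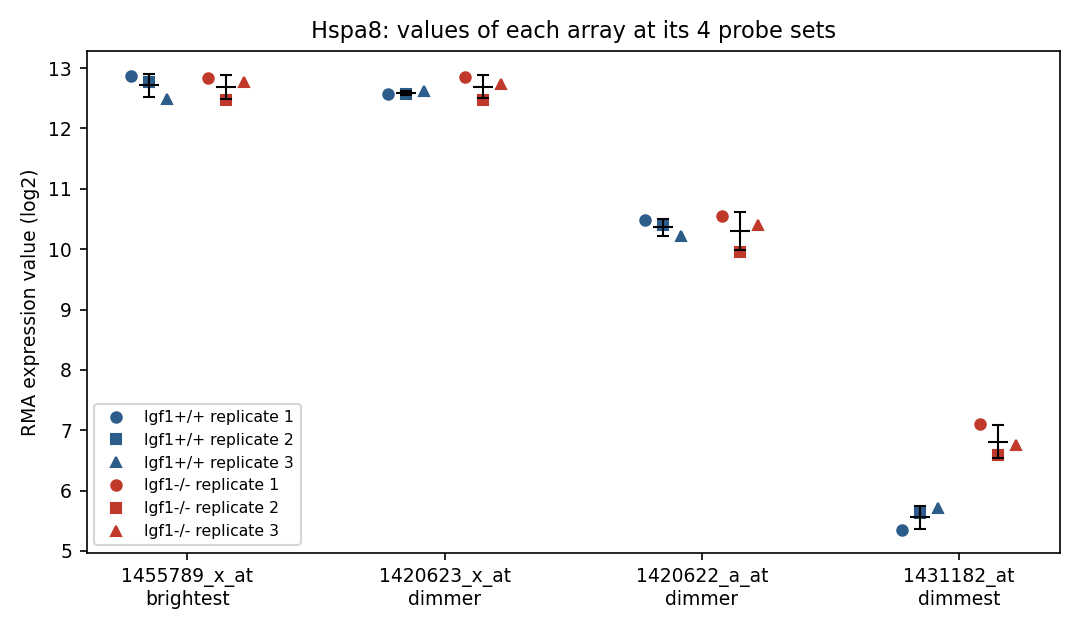
RMA expression values (log2, y axis) of the 4 probe sets of *Hspa8* (x axis, ordered by mean) are shown for each of 3 *Igf1*+/+ (blue) and 3 *Igf1*-/- (red) arrays, with black bars for the mean and SD of each genotype. The genotypes overlap at the brighter 3 and are apart only at 1431182_at, where the *Igf1*-/- arrays sit between 6.58 and 7.11 and the *Igf1*+/+ arrays between 5.34 and 5.71.

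The remaining HSP70-type genes of the cytosol had small values, none past either threshold. *Hspa4*, a nucleotide exchange factor for HSP70, had a log2 difference of -0.14 (adjusted p = 0.714) at its brightest probe set and of -0.02 and -0.12 at the dimmer ones. *Hsph1*, the HSP110 protein of the same family, had -0.05 (adjusted p = 0.939) and -0.28 (adjusted p = 0.560). Its brightest values were 8.17, 7.48 and 7.96 in *Igf1*-/- lungs against 7.97, 8.16 and 7.62 in *Igf1*+/+ lungs, a spread within each genotype that was wider than the distance between them. The heat-inducible HSP70 genes *Hspa1a* and *Hspa1b* are nearly identical copies, are not among the 36 and were named after their values were seen. Both had a log2 difference of -0.32 (adjusted p = 0.436 and 0.404 by limma), with overlapping groups. Dimmer probe sets of *Hspa1b* had -0.41 and -0.30, also with overlap. Other HSP70-type genes read outside the 36 ran from -0.21 for *Hspa12b* to 0.15 for *Hspa4l* at brightest probe sets, both also named after their values were seen.

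The small heat shock protein genes *Cryab* and *Hspb1* had the largest differences of all members at brightest probe sets, and the 4 probe sets with an adjusted p under 0.20 in the downward direction all belong to them. *Cryab* encodes alphaB-crystallin, which is abundant in muscle and lens. Its brightest probe set, 1434369_a_at, measured 10.31, 10.03 and 10.27 in *Igf1*-/- lungs against 11.07, 10.78 and 10.65 in *Igf1*+/+ lungs. All 3 *Igf1*-/- values were below the lowest *Igf1*+/+ value, with a log2 difference of -0.63 (adjusted p = 0.103 by limma, SE 0.12, 3 arrays per genotype), just outside the threshold. A second probe set, 1416455_a_at, showed the same separation, with 10.09, 10.10 and 9.91 against 10.48, 10.31 and 10.62 and a log2 difference of -0.44 (adjusted p = 0.137, SE 0.10). The third, 1435837_at, lay between 3.90 and 4.03 in all arrays, near the lower end of the scale, with 0.05 (adjusted p = 0.818). The brightest probe set passed without *Igf1*+/+ replicate 3 (adjusted p = 0.0489), with array weights (0.0421), with a variance trend (0.0675), with dim probe sets left out (0.0869) and with a replicate block (0.0880), and its adjusted p reached 0.255 with another array left out.

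*Hspb1*, which encodes HSP25 and protects actin filaments, measured 10.38, 10.50 and 10.51 in *Igf1*-/- lungs against 10.88, 10.79 and 10.75 in *Igf1*+/+ lungs at its brightest probe set. The groups did not overlap, and the log2 difference was -0.34 (adjusted p = 0.137 by limma, SE 0.08, 3 arrays per genotype). Its dimmer probe set measured 9.77, 9.81 and 10.01 against 10.43, 10.18 and 10.22, again without overlap, with -0.41 (adjusted p = 0.151, SE 0.10). The brightest probe set passed with array weights (adjusted p = 0.0714) and when *Igf1*+/+ replicate 3 was left out (0.0913). *Hspb8*, the partner of the cochaperone BAG3, had -0.14 (adjusted p = 0.522) at its brightest probe set and -0.03 at both dimmer ones, with overlap at all 3. In all, 7 of the 8 probe sets of this family had a lower mean in the *Igf1*-/- lungs.

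Muscle markers stood as follows beside these genes. Skeletal muscle markers had a mean level of 5.03 to 5.29 in the *Igf1*-/- and of 5.03 to 5.10 in the *Igf1*+/+ lungs. Of these 8 markers, 7 had a higher and 1 a lower mean, with none past the threshold. Smooth muscle markers had a mean level of 8.35 to 8.63 in the *Igf1*-/- and of 8.49 to 8.59 in the *Igf1*+/+ lungs, with 3 of 8 higher, 5 lower and none past the threshold. Cardiac markers were highest in *Igf1*-/- replicate 3, where *Cryab* was 10.27, between the other 2 *Igf1*-/- arrays. Of the further small heat shock protein genes on the arrays, *Hspb2*, a neighbour of *Cryab* in the genome, had a log2 difference of -0.14 (adjusted p = 0.465). The heart and muscle gene *Hspb7* had 0.32 (adjusted p = 0.515), with 7.58 in *Igf1*-/- replicate 3 and 6.64 to 6.84 in the other arrays. Its dimmer probe sets had 0.06 and 0.12. Both *Hspb2* and *Hspb7* were named after their values were seen.

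**Figure D3:**
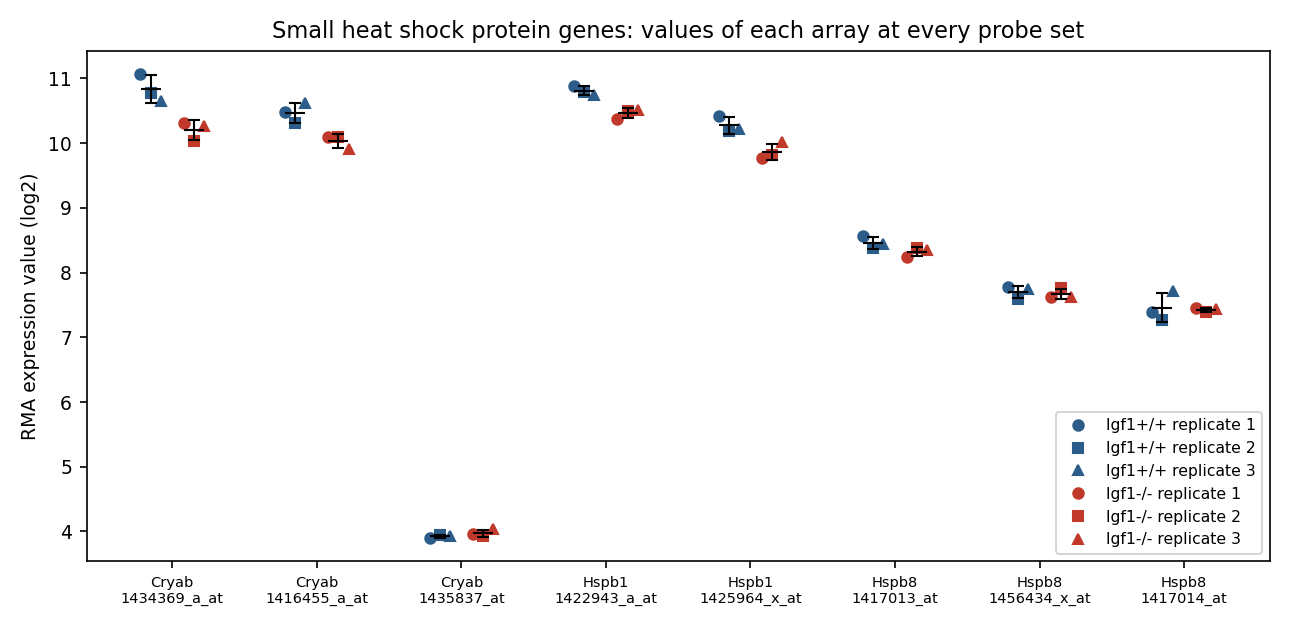
RMA expression values (log2, y axis) of every probe set of *Cryab*, *Hspb1* and *Hspb8* (x axis) are shown for each *Igf1*+/+ (blue) and *Igf1*-/- (red) array, with black bars for mean and SD (n = 3 per genotype). The genotypes are apart at the 2 brighter probe sets of *Cryab* and at both of *Hspb1*, and overlap at the dimmest of *Cryab* and at all 3 of *Hspb8*.

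HSP90 and its adaptor had slightly higher means in the *Igf1*-/- lungs without passing the test. *Hsp90aa1*, the stress-inducible HSP90 of the cytosol, measured 11.40, 11.04 and 11.34 in the *Igf1*-/- and 11.02, 11.28 and 10.92 in the *Igf1*+/+ lungs, with overlap and a log2 difference of 0.18 (adjusted p = 0.567, SE 0.12). Its dimmer probe sets had 0.11 and 0.17. *Stip1*, the adaptor HOP that joins HSP70 to HSP90, was the one with separate groups, at 8.89, 8.75 and 8.80 against 8.47, 8.72 and 8.73 and with 0.18 (adjusted p = 0.465, SE 0.09).

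The HSP40 genes had values near 0. *Dnaja1* measured 11.09, 10.78 and 11.00 against 10.96, 11.06 and 10.96 (log2 difference -0.04, adjusted p = 0.882), and *Dnajb1*, an inducible partner of HSP70, had -0.04 (adjusted p = 0.877). Their dimmer probe sets had -0.02 and -0.09. *Bag3*, which links HSP70 and small heat shock proteins to autophagy, had 0.05 (adjusted p = 0.842). Of the cytosolic members with a heat shock element in the promoter entry, *Cct2* had 0.04, and at brightest probe sets only *Hspb1* stood beyond 0.25 from 0.

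The chaperonin CCT, a double ring whose subunits are encoded by separate genes, is represented by *Tcp1*, *Cct2*, *Cct3*, *Cct4*, *Cct5* and *Cct8*. A higher mean in the *Igf1*-/- lungs was seen at 15 of their 19 probe sets and at 5 of 6 brightest ones. Over all mouse probe sets, 13162 of 22626 had a higher mean. None of the chaperonin probe sets passed the test, and the family's median of 0.05 compares with 0.03 for all mouse probe sets. *Tcp1* had the largest value at a brightest probe set, with 10.87, 10.85 and 11.01 in the *Igf1*-/- and 10.60, 10.71 and 10.75 in the *Igf1*+/+ lungs. These groups did not overlap, and the log2 difference was 0.22 (adjusted p = 0.319, SE 0.08). *Cct4*, shown for its brightness, measured 11.45, 11.21 and 11.46 against 11.43, 11.44 and 11.19, with 0.02 (adjusted p = 0.943).

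Within the chaperonin, dimmer probe sets gave the wider values. The dimmest of *Cct4*, 1415868_at, had 5.38, 5.39 and 5.24 in the *Igf1*-/- and 4.83, 5.15 and 5.09 in the *Igf1*+/+ lungs, without overlap and with a log2 difference of 0.31 (adjusted p = 0.255, SE 0.10), which did not differ by test from that of its brightest (difference 0.29, SE 0.15, adjusted p = 0.620). *Cct3* had 0.06 (adjusted p = 0.751) at its brightest probe set, and its 6 probe sets ran from -0.01 to 0.22. *Cct5* had 0.07 (adjusted p = 0.762). *Cct8* had -0.13 (adjusted p = 0.736), with 9.21 in *Igf1*-/- replicate 2 and 9.63 to 9.82 in the other 5 arrays. The remaining subunit genes on the arrays, *Cct6a* and *Cct7*, had -0.04 (adjusted p = 0.924) and 0.21 (adjusted p = 0.386), the second of them named after its values were seen.

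Mitochondrial chaperones had small positive values. *Hspd1*, the chaperonin HSP60 of the matrix, measured 10.74, 10.42 and 10.78 in the *Igf1*-/- and 10.30, 10.45 and 10.53 in the *Igf1*+/+ lungs, with overlap and a log2 difference of 0.22 (adjusted p = 0.443, SE 0.11). *Hspe1*, its HSP10 lid, had 0.06 (adjusted p = 0.786) and 0.07 at the dimmer probe set, and both genes share the promoter window shown above. *Hspa9*, the HSP70 of mitochondria, had 0.04 (adjusted p = 0.911) at its brightest of 4 probe sets.

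In the ER, the HSP70 and HSP90 genes did not pass the test. *Hspa5*, which encodes BiP, the usual reporter of ER stress, measured 11.84, 11.54 and 11.71 in *Igf1*-/- lungs against 11.86, 11.68 and 11.59 in *Igf1*+/+ lungs. The arrays of both genotypes covered the same range, and the log2 difference was -0.02 (adjusted p = 0.957 by limma, SE 0.10, 3 arrays per genotype), with -0.09 (adjusted p = 0.835) at the dimmer probe set. *Hsp90b1*, encoding GRP94, had -0.05 (adjusted p = 0.881). Its dimmer probe set had -0.20 (adjusted p = 0.389, SE 0.08), with 10.13, 9.92 and 10.12 below 10.27, 10.31 and 10.18.

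*Hyou1*, an HSP110-like exchange factor for BiP, was the one ER gene whose groups were separate at every probe set. It measured 8.52, 8.46 and 8.45 against 8.16, 8.44 and 8.24 at the brightest, and the log2 fold changes were 0.20, 0.22 and 0.25 from the brightest to the dimmest (SE 0.09, 0.07 and 0.09). None passed the test (adjusted p = 0.401, 0.246 and 0.314). The J-domain proteins *Dnajb9* and *Dnajc3*, cochaperones of BiP, had -0.06 (adjusted p = 0.865) and -0.01 (adjusted p = 0.987) at their brightest probe sets. The 5 probe sets of *Dnajc3* ran from -0.20 (adjusted p = 0.368) to 0.13 (adjusted p = 0.544), both at dimmer ones.

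Lectin chaperones and disulfide isomerases had mostly higher means, which 13162 of all 22626 mouse probe sets also had. *Calr*, encoding calreticulin, measured 11.83, 11.69 and 11.83 in the *Igf1*-/- and 11.54, 11.64 and 11.73 in the *Igf1*+/+ lungs, overlapping in 1 array of each genotype, with a log2 difference of 0.14 (adjusted p = 0.502, SE 0.08) and 0.16 and 0.21 at the dimmer probe sets. *Canx*, encoding calnexin, had 0.11 (adjusted p = 0.570), with separate groups, and -0.05 and -0.02 at dimmer probe sets. *Pdia6*, an isomerase that also acts on IRE1, measured 10.83, 10.61 and 10.75 in *Igf1*-/- lungs against 10.21, 10.39 and 10.63 in *Igf1*+/+ lungs. Only *Igf1*+/+ replicate 3 reached the range of the *Igf1*-/- arrays, and the log2 difference was 0.32 (adjusted p = 0.308, SE 0.11). Without that array the adjusted p was 0.0962 and with each of the other arrays left out it was between 0.378 and 0.673. A dimmer probe set of *Pdia6* had -0.08 (adjusted p = 0.746).

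*Pdia3*, the partner of the lectins, measured 11.16, 10.99 and 11.16 against 10.90, 11.05 and 11.11 (log2 difference 0.08, adjusted p = 0.722). *Pdia4* had 0.02 (adjusted p = 0.959) at its brightest probe set and 0.07 at the dimmer one. Over the 6 genes with an ER stress element in the promoter entry, the values at brightest probe sets ran from -0.05 to 0.32 with a median of 0.05, beside 0.03 for the 14 ER genes.

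None of the sensors and factors of the unfolded protein response passed the test. *Xbp1*, whose mRNA is spliced by IRE1 to give the active factor, measured 10.95, 10.94 and 10.82 in the *Igf1*-/- and 11.04, 10.83 and 10.71 in the *Igf1*+/+ lungs. This is a log2 difference of 0.04 (adjusted p = 0.881, SE 0.10), and its dimmer probe sets lay between -0.09 and 0.08. These values do not separate spliced from unspliced mRNA. *Ern1* had 0.02 (adjusted p = 0.945), *Atf6* had -0.06 (adjusted p = 0.817), and *Herpud1*, an ER membrane protein of degradation that is induced by the response, had 0.03 (adjusted p = 0.912). None of the 10 probe sets of these 4 genes had separate groups.

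**Figure D4:**
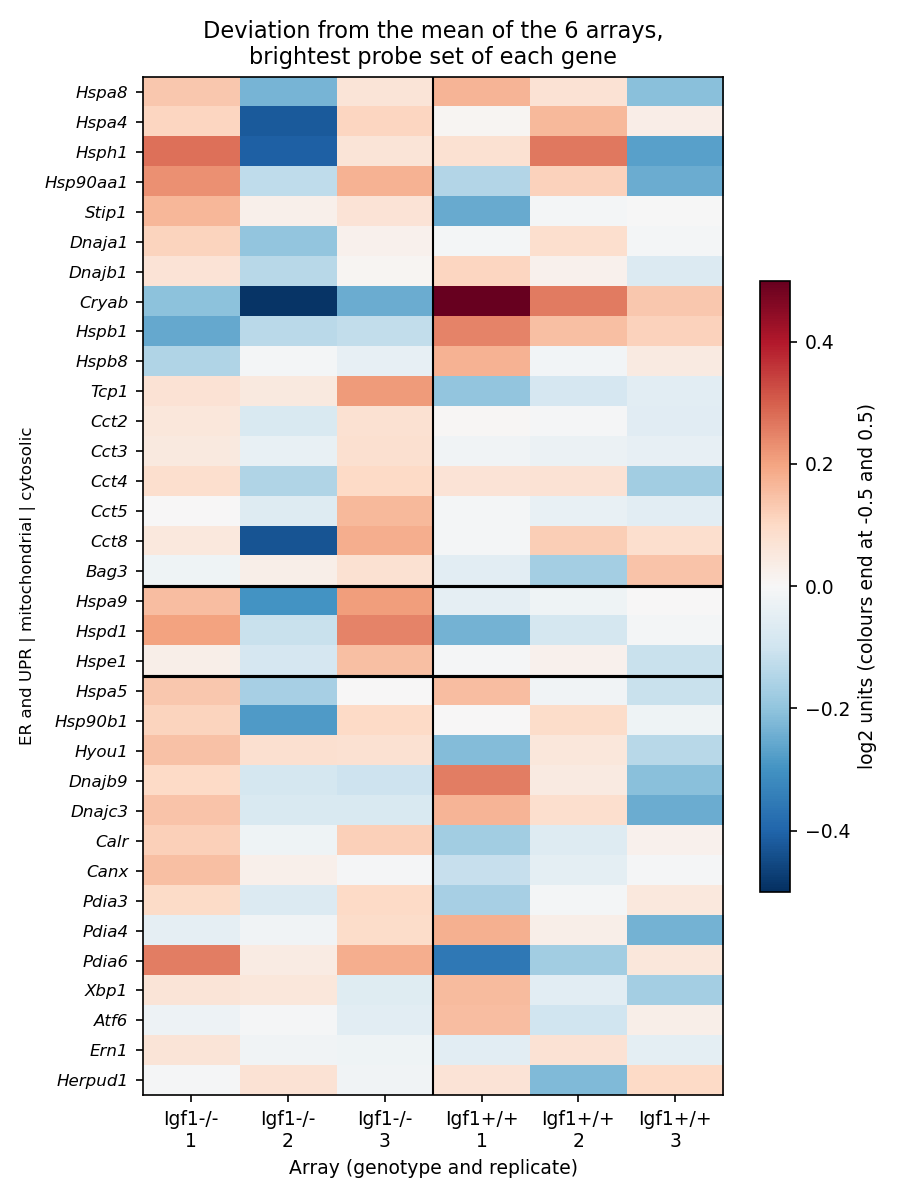
Each cell gives the deviation of an array (x axis, genotype and replicate) from the mean of the 6 arrays, in log2 units, at the brightest probe set of a gene (y axis), with cytosolic genes at the top, mitochondrial ones in the middle and ER genes at the bottom. *Igf1*-/- replicate 2 is low over much of the cytosolic block, and *Cryab* and *Hspb1* are low in all 3 *Igf1*-/- arrays.

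The replicates of a genotype differed among themselves in a pattern that many cytosolic chaperone genes shared. *Igf1*-/- replicate 2 was the lowest of the 6 arrays for 12 of 34 genes at the brightest probe set, 9 of them among the 17 cytosolic genes, and was the highest for 0. Among the 14 ER genes it was lowest for 2 (14.3%). Over all genes it was lowest for 15.1% and highest for 22.0%. *Hsph1*, *Hspa4* and *Cct8* are examples, with 7.48, 8.50 and 9.21 in that array. Together with *Igf1*+/+ replicate 3 it made up the 2 lowest arrays for 10 of the 34 genes, against 7.23% of all genes. Of the 10, 7 were cytosolic, *Hspa8* among them, and 2 were ER genes. This pair of arrays was picked after the values were seen.

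These arrays also had the smallest 3′ minus 5′ difference of the actin control probe sets, a measure that is smaller in more intact RNA. It was 0.28 and 0.23 in them, against 0.33 to 0.43 in the other 4. The *Gapdh* controls gave -0.01 and 0.07, against 0.09 to 0.13. At the pyruvate carboxylase controls these arrays had 2.26 and 2.24, and *Igf1*-/- replicate 3 had 2.26 as well. The part of RNA quality in the pattern was not tested. Without *Igf1*-/- replicate 2 the median of the cytosolic genes was 0.09 in place of -0.02 and that of the mitochondrial genes 0.20 in place of 0.06. Neither the labels nor the methods name a batch.

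Further genes of the same pathways gave few differences. Of 38 other cytosolic chaperones and cochaperones, 17 had a higher and 21 a lower mean in the *Igf1*-/- lungs and none rose or fell. The brightest, the prefoldin subunit *Pfdn5*, had a log2 difference of 0.13 (adjusted p = 0.544). *Fkbp4*, an HSP90 cochaperone of steroid receptors named after its values were seen, was the one past an adjusted p of 0.20 at its brightest probe set, with 0.30 (adjusted p = 0.191) and every *Igf1*-/- array above every *Igf1*+/+ array. Of 9 other mitochondrial chaperones and proteases none passed either threshold. *Timm44* had 0.04 (adjusted p = 0.828) and *Grpel1* had 0.01 (adjusted p = 0.955).

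Of 42 other genes of ER folding, degradation and the unfolded protein response, 23 had a higher and 19 a lower mean at the brightest probe set, and none rose or fell there. *Ero1a*, the oxidase that recharges disulfide isomerases, fell by 0.67 on the log2 scale at its dimmest probe set, which measured 5.04, 5.20 and 5.30 against 6.09, 5.71 and 5.76 (adjusted p = 0.0695, SE 0.12). Its brightest probe set had -0.18 (adjusted p = 0.483). *Ppp1r15a*, which encodes GADD34 and restores translation after stress, measured 7.60 to 7.67 against 8.31, 8.69 and 8.07, a log2 difference of -0.72 (adjusted p = 0.102, SE 0.14). The groups did not overlap, and the gene was named after its values were seen. Other genes of the PERK branch were also named after their values were seen. *Eif2ak3*, which encodes PERK, had -0.09 (adjusted p = 0.727), with overlap. The factor *Atf4* had 0.20 (adjusted p = 0.333), with separate groups, and 0.06 and 0.08 with overlap at dimmer probe sets. Its target *Ddit3*, encoding CHOP, had 0.19 (adjusted p = 0.482), with overlap.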

How the data were processed

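Whole-lung RNA was hybridised to 3 *Igf1*-/- and 3 *Igf1*+/+ arrays, and genotypes were taken from the labels. The authors deposited log2 values from RMA (background correction, quantile normalization, median-polish summary), run by them on these 6 arrays together with 6 cochlear ones, and no version is named. The table holds 22690 probe sets, and 64 controls were left out. The annotation gives 20380 probe sets 1 symbol, 691 several and 1555 none, and all 34 members matched RefSeq by Entrez identifier.

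With R 4.3.3 and limma 3.58.1, genotype was fitted for every mouse probe set with moderated variances, and p values were adjusted by Benjamini and Hochberg over all of them. Dimmer minus brightest values of 7987 probe sets were fitted likewise. The members, the lists and the alternatives were chosen with earlier results of these data known, so no test was made over a list. Every member is given at its brightest probe set. Array values are given for genes with an adjusted p under 0.20, for the gene with the brightest probe set in each family, and for some genes after their values were seen. From the other chaperone lists, genes past 0.10 were named, or otherwise the 2 brightest. The fit was tested on simulated data. Arrays have no read depth, and no sample columns were left over. The study's SAM statistic was an alternative.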

Additional observations from a re-analysis of the deposited data

How the results depend on the processing

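Single genes kept their direction except where the value was small. Of 566 values of single probe sets under alternatives, 37 had another sign than reported, and no reported value above 0.14 in size was among them.

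Counts of calls depend on the variance model and on single arrays. At an adjusted p under 0.10, 1 member probe set was higher, but 0 with dim probe sets left out, which removes the *Hspa8* probe set, or with means compared without moderation. The 0 that were lower, over all probe sets and over brightest ones, became 1 with dim probe sets left out, 1 with a variance trend and 2 with array weights. At 0.20, the 1 higher became 0 with dim probe sets left out, 8 with array weights (where 1114 in place of 222 of all mouse probe sets were higher), 2 with SAM and 0 without moderation, and the 4 lower became 0 without moderation. Of all mouse probe sets, 126 passed 0.10, and 204 did with a variance trend, 628 with array weights and 1 without moderation, while 54 passed 0.05. The 1 dimmer probe set that differed from its brightest became 0 with dim probe sets left out or without moderation, 3 with array weights and 2 with SAM.

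With 1 array left out, all calls ran from 45 to 710, the latter without *Igf1*+/+ replicate 3. Member probe sets higher at 0.10 ran from 1 to 3 and lower from 0 to 2, brightest ones higher from 0 to 1 and lower from 0 to 2. At 0.20 they ran from 1 to 7 higher and from 0 to 5 lower, and dimmer probe sets that differed from 0 to 2. The median ran from -0.083 to 0.087 for cytosolic, from 0.0052 to 0.20 for mitochondrial and from -0.02 to 0.08 for ER genes.

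Deviations from the genotype mean had correlations of -0.04, -0.23 and -0.14 between arrays with the same number. Over all pairs of an *Igf1*-/- and an *Igf1*+/+ array they ran from -0.23 to 0.28. With 3 arrays per genotype these values cannot decide whether such arrays share a litter or a day. With the replicate block, 1 member probe set was lower at 0.10, *Cryab* at its brightest, 1 was lower at 0.20, 0 dimmer probe sets differed from the brightest, and *Hspa8* 1431182_at kept an adjusted p of 0.0381. The number of arrays and dim signals limit what can be seen.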
